A study of Mus musculus with 15 samples.

Results

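The genes described here are 10 that carry out or mark the functions of astrocytes: Gfap, Aqp4, Slc1a2, Slc1a3, Glul, Fabp7, Aldh1l1, Gja1, Agt and Tnc. They were taken by name from the 27803 genes listed in any of 15 tables of UMI counts, in which each UMI stands for 1 captured transcript, and all 10 were listed in every table. Their levels were read in marked cells, defined as barcodes with a UMI of at least 2 of 4 other astrocyte genes, Mlc1, Ednrb, Pla2g7 and Ttyh1, and in all other cells. None of the 10 genes took part in marking a cell. Of 37918 cells kept, 1146 were marked.

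Single cells of 15 mice in 3 groups of 5 were profiled by Drop-seq, which pairs each cell with a barcoded bead in a droplet. The WT cerebella came from C57BL/6 mice on postnatal day 7 (P7). The other 10 mice carried Math1-Cre with SmoM2/EYFP loxP/loxP (M-Smo), so that an active Smoothened fused to EYFP is switched on in cells descended from Math1-expressing granule neuron progenitors, and they developed medulloblastomas. Vehicle mice received the carrier of the drug and Vismodegib mice 75 mg/kg of this Smoothened inhibitor, in 3 daily doses from P12, and tumors were taken at P15. Each sample was part of the tumor or cerebellum of a single mouse, and the capture device was of PDMS for WT cerebella and of glass for tumors. Age, genotype and device therefore cannot be told apart in any comparison of tumors with WT cerebella.

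Astrocytes clear glutamate and potassium released by neurons, convert glutamate to glutamine, move water through their end-feet and share small molecules through gap junctions. In the cerebellum they include Bergmann glia, radial cells whose fibers guide migrating granule neurons and ensheath Purkinje cell synapses. Gfap filaments and matrix proteins such as tenascin-C are known to increase in astrocytes that react to injury or to a neighboring tumor.

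The promoters of Gfap, Gja1 and Agt are shown because these genes were called higher in marked cells of Vismodegib tumors than of Vehicle tumors, Agt only while cells that met the oligodendrocyte list were kept. Slc1a2 was called as well and is not shown, since its promoter held none of the letters searched. Each sequence is the 250 bases before the start in RefSeq on GRCm38.p6, at chr11:102897201-102897450 on the minus strand for Gfap, chr10:56377050-56377299 on the plus strand for Gja1 and chr8:124569707-124569956 on the minus strand for Agt.
Gfap: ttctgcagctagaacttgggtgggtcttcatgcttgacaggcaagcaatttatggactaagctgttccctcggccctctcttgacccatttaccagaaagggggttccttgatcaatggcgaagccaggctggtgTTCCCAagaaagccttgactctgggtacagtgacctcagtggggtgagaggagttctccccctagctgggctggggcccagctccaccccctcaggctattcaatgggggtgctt
Gja1: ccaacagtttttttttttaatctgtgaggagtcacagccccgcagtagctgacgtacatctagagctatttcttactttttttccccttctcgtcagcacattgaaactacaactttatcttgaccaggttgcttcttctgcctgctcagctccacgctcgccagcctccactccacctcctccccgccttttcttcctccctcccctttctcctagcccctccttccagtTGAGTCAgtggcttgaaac
Agt: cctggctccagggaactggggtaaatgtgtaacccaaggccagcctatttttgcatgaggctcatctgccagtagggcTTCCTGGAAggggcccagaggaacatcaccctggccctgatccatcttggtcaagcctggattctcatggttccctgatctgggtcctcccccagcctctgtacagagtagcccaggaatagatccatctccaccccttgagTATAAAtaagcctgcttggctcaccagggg
Capitals mark the letters that matched a searched motif on either strand, and no match shown overlaps another. The motifs were the nuclear factor I site TTGGCA, the STAT site TTCNNNGAA, the RBPJ site TGGGAA, the AP-1 site TGANTCA and the TATA box TATAAA. Of 32536 RefSeq promoters of this length, 12.3% held the nuclear factor I letters, 7.04% the STAT letters, 21.6% the RBPJ letters, 6.73% the AP-1 letters and 12.3% the TATA letters. The Gfap promoter held 1 RBPJ match that began 115 bases before the start, and the Gja1 promoter 1 AP-1 match 19 bases before it. The Agt promoter held a STAT match 172 bases and a TATA box 30 bases before the start. Promoters were matched for 9 of the 10 genes, with 2 for Tnc, and Aqp4 was not matched. Slc1a3 also held STAT and TATA letters, Fabp7, Aldh1l1 and Tnc held RBPJ letters, Tnc held nuclear factor I and TATA letters, and Slc1a2 and Glul held none. These matches describe the letters alone.

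In GENCODE M21 on GRCm38, each of the 10 genes is protein-coding. Gfap spans chr11:102887336-102900912, Gja1 chr10:56377330-56402513, Agt chr8:124556534-124569706 and Fabp7 chr10:57784881-57788450. The glutamate genes lie at chr2:102658659-102790784 (Slc1a2), chr15:8634124-8710764 (Slc1a3) and chr1:153899944-153909723 (Glul), Aldh1l1 at chr6:90486427-90600203 and Tnc at chr4:63959785-64047015. Slc1a3, Glul and Aldh1l1 overlap other genes on their own strand (Gm37310 for Slc1a3, Mir8114 for Glul, Gm45901 and Gm44236 for Aldh1l1), so their counts may include reads of these.

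Libraries held 2310474 to 17708677 UMIs, and no pair of the 15 tables shared more than 13 barcodes. Marked cells numbered 502 in WT cerebella, 280 in Vehicle and 364 in Vismodegib tumors, from 38 to 182, 10 to 177 and 16 to 144 per animal. The tumors Vehicle 1 and 3 and Vismodegib 3 held only 21, 10 and 16 marked cells, and results are therefore also given without these 3 animals. Median UMIs per marked cell ranged from 1349.5 to 2575 in WT, 1232 to 3529.5 in Vehicle and 1675.5 to 4683 in Vismodegib, against 1050 to 1585.5, 1141 to 2591 and 1170 to 2351 in other cells. Ednrb, an endothelin receptor, was present in 95.2 ± 2.59%, 93.9 ± 7.22% and 86.6 ± 6.77% of marked cells (SD, n = 5) of WT, Vehicle and Vismodegib, whereas Pla2g7, a secreted phospholipase, was present in 83.6 ± 4.07%, 49.5 ± 14.8% and 80.9 ± 7.46%.

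Marked cells also carried markers of other cells, and to an unequal degree between groups. At least 2 of 7 genes of the oligodendrocyte lineage (Sox10, Pdgfra, Cspg4, Gpr17, Mag, Mog and Cldn11) were present in 16 of 502 marked WT cells (3.19%), in 85 of 280 marked Vehicle cells (30.4%; 21.6% to 60% per tumor) and in 30 of 364 marked Vismodegib cells (8.24%; 2.38% to 11.1% per tumor). Genes of the granule neuron lineage marked 25.1%, 21.4% and 36.0% of them, those of differentiating granule neurons 10.4%, 5% and 19.5%, and microglial genes 1.59%, 1.79% and 5.49%. Marked cells that met a second lineage's list made up 37.9 to 42.1% per animal in WT, 37.8 to 70% in Vehicle and 24.4 to 69.4% in Vismodegib. The comparisons of marked cells between groups and the interactions were repeated without the cells that met the oligodendrocyte list. The comparisons of other cells between groups were not. This left Vehicle 3 with under 5 marked cells, and it was dropped from those fits.

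The fraction of marked cells was largest in WT cerebella and smallest in Vehicle tumors. In the 5 WT cerebella 8.87, 6.96, 7.83, 5.47 and 4.72% of cells were marked, in Vehicle tumors 0.643, 1.05, 0.607, 2.01 and 2.19%, and in Vismodegib tumors 2.63, 1.65, 1.92, 3.46 and 3.69%. All WT values lay above all tumor values, whereas the tumor groups overlapped. The mean was 6.77 ± 1.69% in WT, 1.30 ± 0.754% in Vehicle and 2.67 ± 0.906% in Vismodegib (SD, n = 5). Vehicle was lower than WT by 5.47 points (2-sided exact permutation test, p = 0.00794, the smallest that 5 against 5 allows, adjusted p = 0.0159 over both comparisons), and Vismodegib was higher than Vehicle by 1.37 points (p = 0.0476, adjusted p = 0.0476). Without cells of the oligodendrocyte list, the treatment difference was 1.67 points (exact permutation p = 0.0159), and without cells that met the lists of 2 lineages it was 0.758 points (p = 0.0159). It was 1.16 points with at least 3 markers and 1.17 points with markers read after thinning to 500 UMIs (exact permutation p = 0.00794 for both). Over all kept cells, the treatment difference missed 0.05 without Vehicle 1 (1.21 points, exact p = 0.0952), 2 (1.31 points, p = 0.0873) or 3 (1.20 points, p = 0.0952), or Vismodegib 1 (1.38 points, p = 0.0794), 4 (1.17 points, p = 0.0794) or 5 (1.11 points, p = 0.0794). It also missed 0.05 with a limit of 4 SD on cells (1.25 points, exact permutation p = 0.0556). Permuted within 2 sets of tumors that earlier work told apart, its exact p was 0.05. A gain of marked cells and a loss of other cells cannot be told apart in such a fraction.

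**Figure D1:**
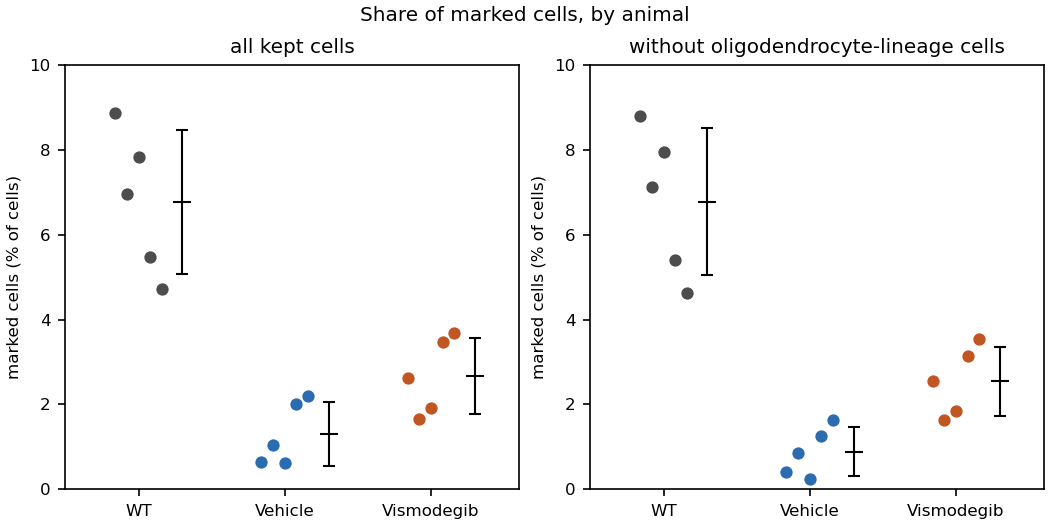
Marked cells as a percent of all kept cells (vertical axis) for each of the 15 animals in 3 groups, with the mean and SD of 5 animals, for all kept cells and without cells that met the oligodendrocyte list. WT animals lie between 4.72 and 8.87%, above every tumor, and Vismodegib tumors average 2.67% against 1.30% in Vehicle.

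The 10 genes were on average at higher levels in marked than in other cells of every group. Some could be tested only because they were high there: Gfap, Aldh1l1, Agt and Tnc in WT, Aqp4, Aldh1l1 and Agt in Vehicle, and Aldh1l1, Agt and Tnc in Vismodegib reached the filter on low counts in marked cells alone, so that their folds are descriptions. The counts of calls therefore take only genes that reached it in both cell sets. In WT cerebella these were 6 of the 10, and all 6 were called higher (edgeR quasi-likelihood test with the animal as a block, adjusted p under 0.05), where 18.2% of 5806 such genes were called higher and 31.1% of all 9822 genes tested in either direction. In Vehicle tumors 6 of 6 were called higher, where 17.8% of 5207 such genes and 33% of all 11347 in either direction were called. In Vismodegib tumors 7 of 7 were called higher, where 22.2% of 7001 such genes and 46% of all 11014 in either direction were called. Over all members with a fitted value, descriptions included, folds ran from 4.47 to 109 in WT, 3.34 to 313 in Vehicle and 9.85 to 236 in Vismodegib. Marked cells exceeded other cells in 5 of 5 animals of each group for every gene, with 1 exception, Tnc in Vehicle 1, where marked cells held 0 Tnc UMIs, which allows up to 92.4 UMIs per 1000000 UMIs (3 counts, counting error only), and 4 of 5 animals were higher. With no UMI in that animal, Tnc was not tested in the Vehicle group.

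The genes differed in how exclusive they were. Among 825 genes called higher in marked cells of all 3 groups, those with the largest mean log2 fold were Aqp4, Aldh1l1, Agt, Acsbg1, Fabp7, Cyp26b1, Aldoc, Lcat, Hopx and Cldn10. This order is a description, since Aldh1l1 and Agt in every group and Aqp4 in Vehicle reached the filter in marked cells alone. Aqp4, the water channel of astrocyte end-feet, was 6.53 ± 0.11 higher on the log2 scale in WT (± SE), 8.29 ± 0.24 in Vehicle and 7.88 ± 0.21 in Vismodegib. Slc1a2, which encodes the glutamate transporter GLT-1, was higher by 2.72 ± 0.13, 1.74 ± 0.19 and 3.51 ± 0.15, and Glul, which encodes glutamine synthetase, by 2.16 ± 0.15, 3.30 ± 0.19 and 3.30 ± 0.14. Most UMIs of Slc1a2 and Glul lay outside marked cells on average. Marked cells held 35.4 ± 7.75%, 6.95 ± 5.51% and 33 ± 12.4% of all Slc1a2 UMIs in WT, Vehicle and Vismodegib (SD, n = 5), and 26.9 ± 3.48%, 16.9 ± 12.2% and 29.5 ± 5.89% of Glul UMIs. For Aqp4 they held 87.8 ± 4.1%, 83 ± 8.23% and 90.9 ± 3%.

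As for Slc1a2, the fold of Gfap, the intermediate filament by which astrocytes are usually stained, was smallest in Vehicle tumors. Its fold over other cells was 6.50 ± 0.17 in WT, 4.82 ± 0.24 in Vehicle and 6.87 ± 0.20 in Vismodegib on the log2 scale. Marked cells held 86.8 ± 6.4% of Gfap UMIs in WT and 81.6 ± 9.93% in Vismodegib, but 33.3 ± 23.3% in Vehicle. Gja1, the gap junction protein connexin 43, had its smallest fold in WT, at 2.83 ± 0.17 in WT, 4.97 ± 0.25 in Vehicle and 5.97 ± 0.16 in Vismodegib.

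**Figure D2:**
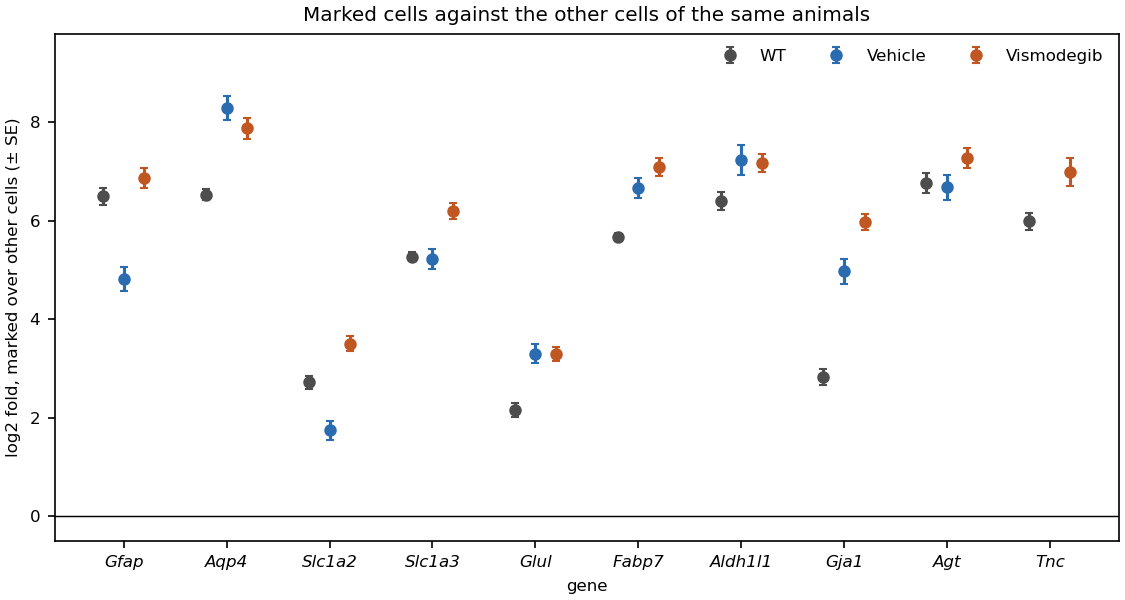
Log2 fold of marked over other cells (vertical axis) with its standard error for the 10 genes in WT, Vehicle and Vismodegib, 5 animals each. Every gene lies above 0 in each group where it was tested, Slc1a2 in Vehicle is lowest at 1.74 and Aqp4 in Vehicle highest at 8.29, and Vehicle Tnc was not tested.

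Vismodegib and Vehicle tumors were then compared within marked cells, to ask whether these functions changed when Smoothened was inhibited. Of the 10 genes, 4 were higher in Vismodegib (Gfap, Gja1, Slc1a2 and Agt), none was lower and 6 did not pass the test, where 48 of 2117 genes were called in all (2.27%, 31 higher and 17 lower). Tnc, which did not pass, reached the filter on low counts only through Vismodegib. The median log2 difference was 0.89 over the 10 genes and -0.02 over all genes tested. Folds ranged from 0.642 for Tnc to 4.39 for Gfap. Groups did not overlap for 3 genes, Aqp4, Slc1a2 and Gja1, as for 4.25% of all genes tested.

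Gfap showed the largest difference. Its level in marked cells, in UMI counts per 1000000 UMIs of the marked cells (CPM), was 277, 314, 341, 668 and 412 in Vehicle 1 to 5 and 2046, 2539, 583, 1799 and 2032 in Vismodegib 1 to 5. Of the Vismodegib tumors, 4 lay far above every Vehicle tumor, and Vismodegib 3 lay within the Vehicle range. The means were 403 ± 156 and 1799.7 ± 732 CPM (SD, n = 5), a log2 difference of 2.14 ± 0.33 (SE, edgeR adjusted p = 0.00108), or 4.39-fold with a 95% interval of 2.81 to 6.88. Without cells of the oligodendrocyte list, Gfap was at 601 ± 308 CPM in 4 Vehicle and 1948 ± 766 CPM in 5 Vismodegib tumors, a difference of 1.69 ± 0.37 (edgeR adjusted p = 0.0430). Without the 3 tumors with few marked cells it was 2.24 ± 0.28 (adjusted p = 0.000797), and it passed with any 1 tumor left out.

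Of the genes of water and ion exchange, Gja1 was higher in every Vismodegib tumor. Its level was 216, 617, 184, 370.4 and 322 CPM in Vehicle and 962, 1109, 1129, 927 and 1078 CPM in Vismodegib, with no overlap. The difference was 1.56 ± 0.25 on the log2 scale (edgeR adjusted p = 0.00134), 2.94-fold with an interval of 2.09 to 4.15, and without oligodendrocyte-list cells it was 1.09 ± 0.24 (adjusted p = 0.0430). Leaving out cells that carried markers of 2 lineages gave 1.23 ± 0.33 (adjusted p = 0.0634), and leaving out the 3 tumors with few marked cells 1.34 ± 0.26 (adjusted p = 0.0159). Aqp4 was at 1140.00, 3796, 998, 3528 and 3357 CPM in Vehicle and 6412, 6383, 5917, 5106 and 5961 CPM in Vismodegib. These groups did not overlap either, but Vehicle 1 and 3 lay well below the other Vehicle tumors, and the difference of 1.22 ± 0.32 missed the threshold in edgeR (adjusted p = 0.0553). It passed in DESeq2 (1.24 ± 0.32, adjusted p = 0.00503), and was 0.65 ± 0.29 (edgeR adjusted p = 0.357) without oligodendrocyte-list cells.

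Among the glutamate genes, Slc1a2 passed the test and Slc1a3 and Glul did not. Slc1a2 was at 401, 1386, 709, 868 and 634 CPM in Vehicle and 2370.5, 1668, 1464, 1748 and 1625 CPM in Vismodegib. All Vismodegib tumors lay above all Vehicle tumors, the nearest being Vehicle 2. The log2 difference was 1.14 ± 0.27 (edgeR adjusted p = 0.0266), 2.21-fold with an interval of 1.53 to 3.19. It was 0.79 ± 0.28 (adjusted p = 0.237) without oligodendrocyte-list cells and 1.04 ± 0.29 (adjusted p = 0.0787) without the tumors with few marked cells. It also missed the threshold without Vehicle 3 (1.128, adjusted p = 0.0528), Vehicle 4 (1.17, 0.0608), Vehicle 5 (1.03, 0.112), Vismodegib 1 (1.02, 0.0768) or Vismodegib 4 (1.18, 0.0501). Slc1a3, which encodes GLAST, the main glutamate transporter of Bergmann glia, ranged from 1725 to 4448 CPM in Vehicle and 2952 to 4767 CPM in Vismodegib, a log2 difference of 0.10 with a 95% interval of -0.41 to 0.61. Glul ranged from 585 to 1719 and 929.7 to 1782 CPM, a difference of -0.03 with an interval of -0.54 to 0.48.

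The secreted products differed from each other. Agt, which encodes angiotensinogen and is made by astrocytes in the brain, was at 185, 815, 499, 443 and 592 CPM in Vehicle and 1590.5, 1306, 757, 962 and 1217 CPM in Vismodegib. The groups overlapped in that Vehicle 2 lay above Vismodegib 3. The log2 difference was 1.17 ± 0.29 (edgeR adjusted p = 0.0342), 2.25-fold with an interval of 1.52 to 3.32, and it was 0.81 ± 0.28 (adjusted p = 0.236) without oligodendrocyte-list cells and 1.12 ± 0.27 (adjusted p = 0.0445) without the tumors with few marked cells. Agt missed the threshold without Vehicle 3 (1.18, adjusted p = 0.0556), Vehicle 4 (1.11, 0.0998), Vehicle 5 (1.20, 0.0838), Vismodegib 1 (1.04, 0.0881), Vismodegib 2 (1.14, 0.0583) or Vismodegib 5 (1.17, 0.0671). Tnc, the matrix protein tenascin-C, was at 0, 384, 236, 437 and 305 CPM in Vehicle and 304, 342, 211, 108 and 113 CPM in Vismodegib, and its difference of -0.64 ± 0.41 did not pass (adjusted p = 0.531). Fabp7, a fatty acid binding protein of radial and Bergmann glia, differed by -0.29 ± 0.34 (adjusted p = 0.775), and Aldh1l1, a folate enzyme widely used to mark astrocytes, by 0.64 ± 0.23 (adjusted p = 0.187).

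**Figure D3:**
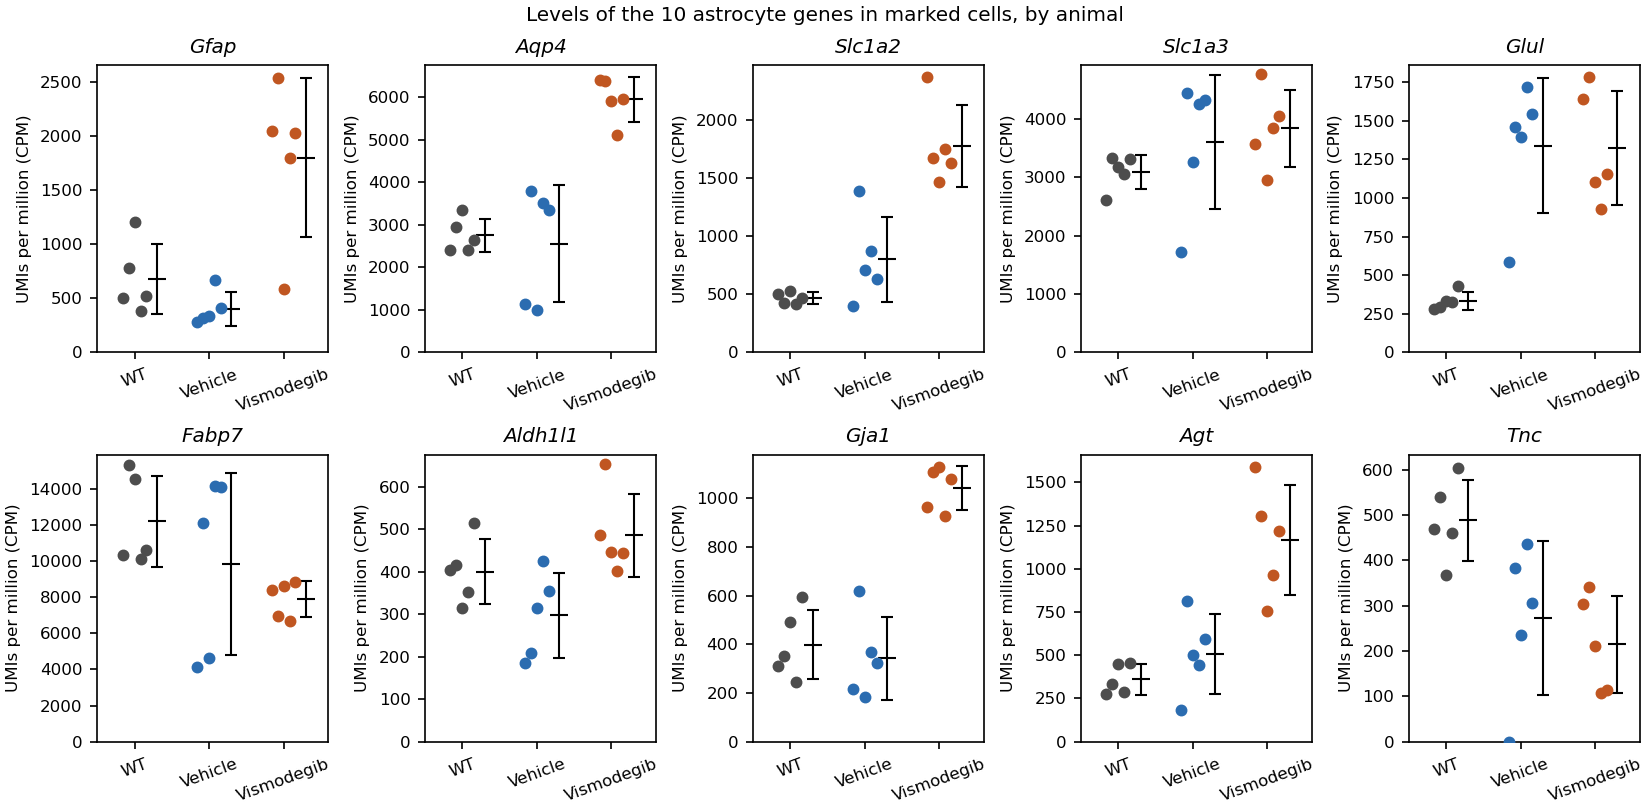
Level of each of the 10 genes in marked cells (CPM, vertical axes) for each of the 15 animals in WT, Vehicle and Vismodegib, with the mean and SD of 5 animals. Gja1 and Slc1a2 of Vismodegib tumors lie above every other animal, and Glul lies near 332 CPM in WT and above 1300 CPM on average in both tumor groups.

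**Figure D4:**
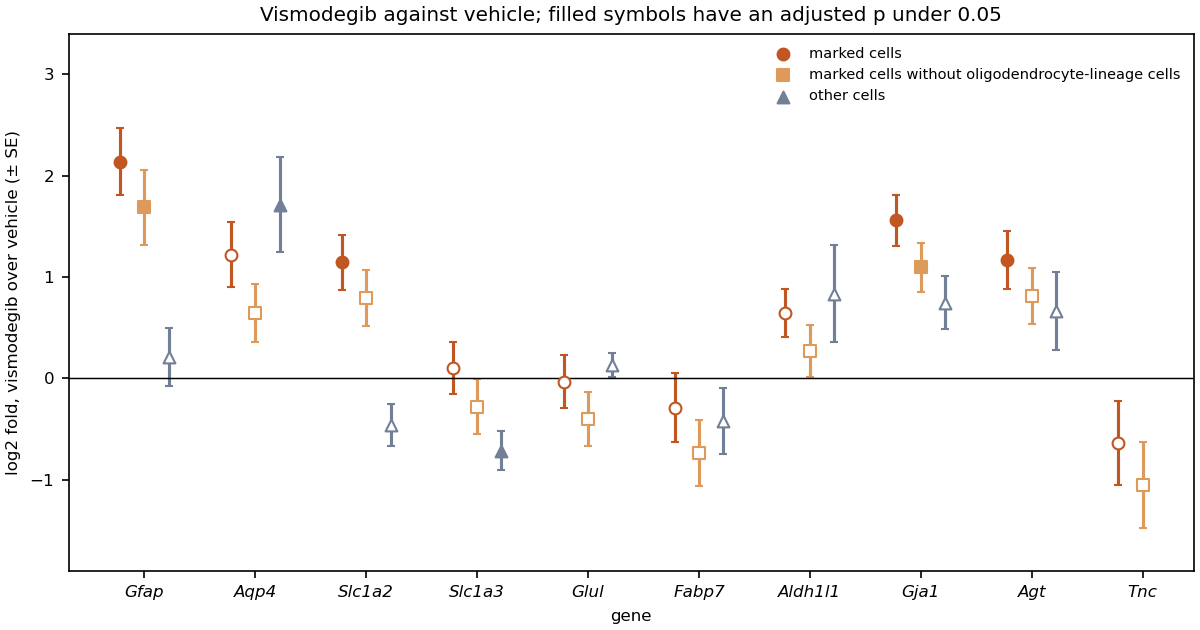
Log2 difference of Vismodegib over Vehicle tumors with its standard error, for the 10 genes in marked cells, in marked cells without those that met the oligodendrocyte list, and in other cells. Filled points passed an adjusted p of 0.05, and only Gfap and Gja1 passed in both sets of marked cells.

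Among the other cells, a median of 64.8% in Vehicle and 64.1% in Vismodegib tumors carried at least 2 granule lineage genes, and a median of 25.6% in Vehicle and 52.9% in Vismodegib at least 2 genes of differentiating granule neurons, so that the makeup of the other cells differed between the groups. There 1 gene was higher and 1 lower, of 7 that reached the filter on low counts in both groups, where 13.5% of 13102 genes were called. Aldh1l1 and Agt are not counted, since they reached it only through Vismodegib. Aqp4 was at 3.24, 5.43, 2.89, 11.1 and 16.8 CPM in Vehicle and 12.4, 23.9, 22.8, 43.7 and 32.8 CPM in Vismodegib, with some overlap, a log2 difference of 1.71 ± 0.47 (edgeR adjusted p = 0.0271). Slc1a3 was at 146, 74.1, 76, 61.4 and 101 CPM in Vehicle and 51.9, 52.2, 60.8, 58.8 and 56.5 CPM in Vismodegib, all Vismodegib values below all Vehicle values, a difference of -0.72 ± 0.19 (adjusted p = 0.0259). The share of all genes whose groups do not overlap was not computed for other cells. Aqp4 missed the threshold without Vehicle 1 (1.496, adjusted p = 0.0522), Vehicle 2 (1.57, 0.0724), Vismodegib 4 (1.45, 0.0802) or Vismodegib 5 (1.65, 0.0621), and when markers were read after thinning each cell to 500 UMIs (1.11, 0.328). Slc1a3 missed it without Vehicle 5 (-0.67, adjusted p = 0.0611), Vismodegib 1 (-0.70, 0.0515) or Vismodegib 5 (-0.71, 0.0595). Astrocytes that carried fewer than 2 of the 4 markers are among the other cells, and neither their part nor that of the differentiating granule neurons in these values was tested.

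Whether treatment acted differently in marked and other cells was tested with an interaction term, with the animal as a block. The term was called for 4 genes, against 3.22% of 12005 genes. Tnc is not counted, since it reached the filter on low counts only through marked Vismodegib cells. Aldh1l1 and Agt reached it in marked cells alone, and Aqp4 and Gja1 in every set but other Vehicle cells. The Vismodegib minus Vehicle difference was larger in marked than in other cells for Gfap by 2.01 ± 0.31 on the log2 scale (edgeR adjusted p = 3.97e-06), for Slc1a2 by 1.72 ± 0.28 (1.84e-05), for Gja1 by 0.97 ± 0.28 (0.0319) and for Slc1a3 by 0.94 ± 0.28 (0.0466). For Slc1a3 the other cells fell (-0.72) and marked cells did not pass (0.10, edgeR adjusted p = 0.907). The part of the differing makeup of the other cells in these terms was not tested. Without oligodendrocyte-list cells Gfap (1.48 ± 0.30, adjusted p = 0.000220) and Slc1a2 (1.25 ± 0.27, 0.000625) passed, and Gja1 (0.63 ± 0.31, 0.519) and Slc1a3 (0.62 ± 0.26, 0.345) did not. Without the 3 tumors with few marked cells Slc1a3 did not pass (0.53 ± 0.21, adjusted p = 0.198), whereas Gfap, Slc1a2 and Gja1 did (largest adjusted p = 0.0479). Without cells of 2 lineages neither Gja1 (0.87, adjusted p = 0.450) nor Slc1a3 (0.79, 0.416) passed. Gja1 also missed the threshold without Vehicle 3 (0.80, 0.0883), Vehicle 5 (0.92, 0.0818), Vismodegib 1 (0.90, 0.0724) or Vismodegib 2 (0.91, 0.0789), and Slc1a3 without Vehicle 1 (0.59, 0.231), Vehicle 3 (0.87, 0.0853), Vismodegib 2 (0.85, 0.0962) or Vismodegib 5 (0.94, 0.0524).

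Vehicle tumors were next compared with WT cerebella, that is, tumor at P15 with normal tissue at P7. In marked cells 2 of the 9 genes that reached the filter on low counts in both groups were higher in Vehicle (Glul and Slc1a2) and none lower. Over all genes 736 of 3163 were called (23.3%). Glul, which converts glutamate to glutamine, was at 283, 291, 334, 323 and 428 CPM in WT and 585, 1455, 1391, 1719 and 1540.2 CPM in Vehicle. The groups did not overlap, although Vehicle 1 lay far below the other Vehicle tumors. The log2 difference was 2.03 ± 0.23 (edgeR adjusted p = 9.29e-07), or 4.07-fold with an interval of 2.96 to 5.60, and it was 2.51 ± 0.25 (adjusted p = 2.38e-07) without oligodendrocyte-list cells. Glul was the only one of the 10 genes whose groups did not overlap here, as those of 15.5% of all genes tested did not.

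Slc1a2 was at 499, 423, 532, 419 and 467 CPM in WT, below 4 of the 5 Vehicle tumors. It was higher in Vehicle by 0.77 ± 0.24 (edgeR adjusted p = 0.0230), by 1.22 ± 0.25 (0.000699) without oligodendrocyte-list cells and by 0.96 ± 0.23 (0.00394) without the tumors with few marked cells. It missed the threshold without WT 2 (0.70, 0.0741), WT 4 (0.72, 0.0623), WT 5 (0.74, 0.0523) or Vehicle 2 (0.50, 0.117). Gfap was at 503, 776, 1201, 386 and 526 CPM in WT, and its difference of -0.71 ± 0.29 did not pass (adjusted p = 0.0739). It passed without WT 1 (-0.83, 0.0482), WT 4 (-0.88, 0.0330) or Vehicle 4 (-0.96, 0.0272), and was -0.13 ± 0.31 (0.815) without oligodendrocyte-list cells. For Agt the difference was 0.54 ± 0.26 (adjusted p = 0.140), and it passed without oligodendrocyte-list cells (1.03 ± 0.26, 0.0047) and without the tumors with few marked cells (0.73 ± 0.24, 0.0329). For Slc1a3 it was 0.20 ± 0.23 (adjusted p = 0.581) in all marked cells and 0.71 ± 0.23 (0.0297) without oligodendrocyte-list cells.

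Of the remaining genes, none of those tested passed between Vehicle and WT marked cells. Fabp7 ranged from 10138 to 15337 CPM in WT and 4159 to 14155 CPM in Vehicle, Aqp4 from 2409 to 3345 and 998 to 3796 CPM, and Gja1 from 245 to 594 and 184 to 617 CPM. In each of these Vehicle 1 and 3 were the lowest of all WT and Vehicle animals. Tnc, at 469, 540.3, 369, 460.3 and 604 CPM in WT, is given without a test here, since only in WT did all 5 animals reach the filter on low counts.

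In other cells of Vehicle tumors 3 genes were higher than in WT and 3 lower, where 47.4% of 13492 genes were called. Aldh1l1 and Tnc are not counted, since they reached the filter on low counts only through WT, and their levels are given without a test. Slc1a2 was higher by 1.62 ± 0.18, with 58.9 to 97 CPM in WT and 167 to 316 CPM in Vehicle, and Glul by 0.67 ± 0.16. Gfap was higher by 0.88 ± 0.32 (edgeR adjusted p = 0.0359), a call lost without WT 1 (0.69, 0.0970), WT 3 (0.89, 0.0549), WT 4 (0.77, 0.0957), WT 5 (0.89, 0.0575), Vehicle 3 (0.71, 0.0814) or Vehicle 5 (0.87, 0.0566), and its direction turned (-0.53, adjusted p = 0.216) when markers were read after thinning each cell to 500 UMIs. The genes that fell were Gja1 (-2.42 ± 0.22), Aqp4 (-1.92 ± 0.41) and Fabp7 (-1.59 ± 0.27). Gja1 fell from 53.8 ± 9.8 to 10.1 ± 3.05 CPM and Fabp7 from 251.5 ± 52.7 to 84.3 ± 42.1 CPM (SD, n = 5). Tnc was at 8.30 ± 1.43 CPM in WT and 0.973 ± 0.540 CPM in Vehicle, and Aldh1l1 at 5.06 ± 1.10 and 1.74 ± 1.33 CPM. Slc1a3 (0.08 ± 0.20) and Agt (0.52 ± 0.39) did not pass. The makeup of the other cells differed here too. A median of 2.73% in WT and 0.489% in Vehicle carried at least 2 fibroblast and mural genes. For GABAergic genes these medians were 5.11 and 0.0631%. The part of this makeup in the differences was not tested.

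The interaction of tumor with cell set was called for 6 genes, where 6.78% of 11258 genes were called. Tnc is not counted, since it reached the filter on low counts only through marked WT cells. Aldh1l1 and Agt reached it in marked cells alone, Aqp4 and Gja1 in every set but other Vehicle cells, and Gfap in every set but other WT cells. Relative to other cells, marked cells had a larger Vehicle minus WT difference in Gja1 (2.29 ± 0.27), Aqp4 (1.89 ± 0.23), Glul (1.34 ± 0.23) and Fabp7 (1.17 ± 0.19), and a smaller one in Gfap (-1.51 ± 0.30) and Slc1a2 (-0.78 ± 0.25). For Gja1, Aqp4 and Fabp7 the other cells fell and marked cells did not pass. The part of the differing makeup of the other cells in these terms was not tested. Without oligodendrocyte-list cells Gfap (-0.82 ± 0.29, adjusted p = 0.0628) and Slc1a2 (-0.19 ± 0.22, 0.777) did not pass, whereas Slc1a3 (0.65 ± 0.20, 0.0310) did. Slc1a2 also missed the threshold without the tumors with few marked cells (-0.47 ± 0.21, 0.176), without WT 2 (-0.82, 0.0566), WT 3 (-0.74, 0.0908) or Vehicle 1 (-0.57, 0.143).

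The levels were generally higher in cells that carried more of the 4 markers, and the groups differed in how many marked cells carried all 4. These were 29.1% of marked cells in WT (19.8 to 42.1% per animal), 33.2% in Vehicle (14.3 to 45.9%) and 53.8% in Vismodegib (50 to 57.8%), with no overlap between the tumor groups. The part of this shift in the differences between all marked cells was not tested. The number of markers found in a cell also depends on its UMIs. Their medians per marked cell ran from 1232 to 3529.5 in Vehicle and from 1675.5 to 4683 in Vismodegib. For Aqp4 in WT, cells with 0, 1, 2, 3 and 4 markers were at 29.1 ± 7.85, 41.4 ± 15.6, 644 ± 518, 3232 ± 867 and 3973 ± 546 CPM (SD, n = 5). In Vismodegib tumors the same steps were 24.5 ± 11.1, 51.6 ± 31.8, 393 ± 341, 3742 ± 1269 (n = 4) and 8168 ± 449 CPM. Cells with 2 markers thus lay between unmarked cells and those with 3 or 4. Cells with 4 markers held 1151 ± 627 CPM of Gfap in WT, 871 ± 297 in Vehicle (n = 3) and 2406 ± 942 in Vismodegib. For Gja1 they held 502 ± 158, 676 ± 155 and 1429 ± 222 CPM, for Glul 373 ± 107, 2631 ± 453 and 1627 ± 333 CPM, and for Tnc 631 ± 191, 677 ± 147 and 268 ± 101 CPM. Fabp7 was at 15332 ± 1838, 21598 ± 3014 and 10722 ± 1724 CPM and Slc1a3 at 3922 ± 525, 7656 ± 237 and 5193 ± 764 CPM. For Fabp7, Slc1a3, Glul and Tnc, the 3 Vehicle tumors lay above all 5 Vismodegib tumors. For Aqp4, Gja1 and Slc1a2 they lay below all 5, Slc1a2 narrowly, with a Vehicle maximum of 1937 and a Vismodegib minimum of 1938 CPM. The share of all genes whose groups separate in this way was not computed. No test was run on these steps. Requiring at least 3 markers gave treatment differences of 1.76 ± 0.36 for Gfap and 1.18 ± 0.24 for Gja1 (edgeR adjusted p = 0.0104 for both), 0.90 ± 0.26 for Slc1a2 (0.0798) and 0.83 ± 0.25 for Agt (0.087).

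Single marked cells usually carried several of the 10 genes. With every cell thinned to 500 UMIs, so that depth did not set the count, a marked cell carried on average 3.04 to 3.57 of the 10 in WT animals, 1.9 to 3.68 in Vehicle and 3.5 to 5.45 in Vismodegib, against 0.192 to 0.303 in other cells of all 15 animals. Gfap was present in 15.6 ± 5.43% of thinned marked cells in WT, 10.6 ± 3.29% in Vehicle and 42.4 ± 12.2% in Vismodegib (SD, n = 5), and Fabp7 in 84.9 ± 4.8%, 72 ± 17.3% and 69.5 ± 13.6%. At this depth a cell with no UMI is not shown to lack the transcript.

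The genes were also read in unmarked cells that carried at least 2 genes of 1 other list and of no other lineage, again at 500 UMIs per cell. Gfap, Agt, Aldh1l1 and Tnc were each present in 0 to 2.5% of the cells of the 6 lists plotted. Slc1a2 was present in 4.16, 12 and 8.56% of granule lineage cells of WT, Vehicle and Vismodegib, against 0, 1.09 and 1.66% of microglial cells. In red blood cells, of which there were only 28, 20 and 17, Slc1a2 was present in 0, 7.14 and 32.5%, so that its background share is uncertain. Glul was present in 13.8, 28.9 and 26% of microglial and 20.2, 14.9 and 23.4% of endothelial cells, against 3.32, 5.38 and 5.41% of granule lineage cells. Gja1 was present in 31.8, 12 and 16.2% of fibroblast and mural cells, where Slc1a3 was present in 25.7, 15.3 and 25.7%. Fabp7 was present in 42.2, 48.7 and 27.8% of oligodendrocyte-lineage cells, against 6.77, 3.14 and 2.2% of microglial cells and 25.9, 0 and 12.5% of the few red blood cells. Free RNA also gives such UMIs, and its part was not tested. Apart from the red blood cells, these are descriptions over 36 to 7553 cells per list and group.

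**Figure D5:**
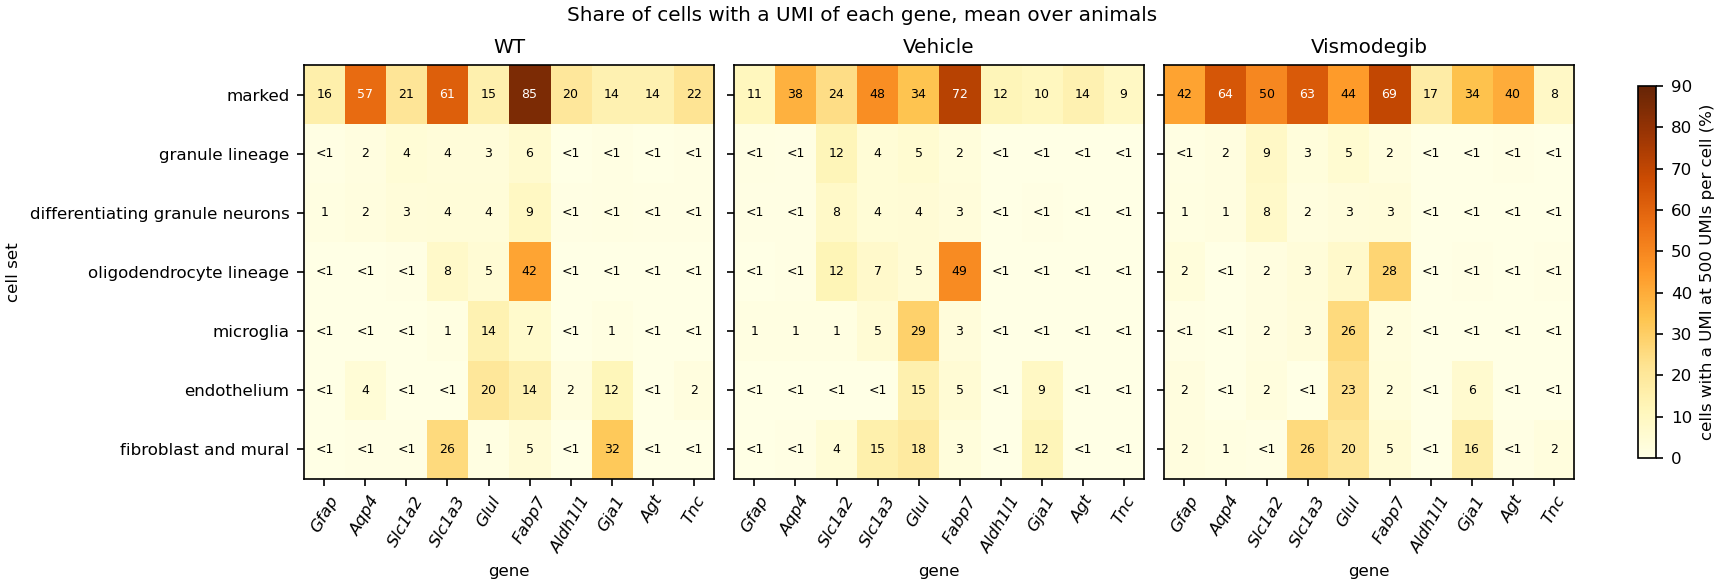
Percent of cells with a UMI of each of the 10 genes at 500 UMIs per cell (color and number, mean over animals), for marked cells and for unmarked cells of other marker lists, in WT, Vehicle and Vismodegib. The marked row is highest for Gfap, Aqp4, Aldh1l1 and Agt, while Glul, Gja1, Slc1a3 and Fabp7 also appear in 1 or more other rows.

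Marked tumor cells were also split by a UMI of Olig1, of Gdf10, of Mki67 or Top2a, and of the SmoM2-EYFP transgene. Olig1, a transcription factor of glial precursors, was present in 7.57% of marked cells in WT, 53.9% in Vehicle and 22.3% in Vismodegib. Gdf10, a marker of Bergmann glia, was present in 35.3, 6.07 and 12.1%, the proliferation genes Mki67 or Top2a in 39.2, 38.6 and 42.3%, and the SmoM2-EYFP transgene in 0 of 502, 22 of 280 and 18 of 364 marked cells. Cells with a UMI of Mki67 or Top2a differed by -917 CPM in Slc1a3 and by -531 CPM in Glul from cells without one, and were lower in 9 of 9 tumors for both (2-sided exact permutation of signs, adjusted p = 0.0781 for both). Without oligodendrocyte-list cells they were lower in 6 of 8 tumors for both, by -816 and -428 CPM (exact permutation, adjusted p = 0.312 for both). Olig1-positive cells differed by -1759 CPM in Slc1a3, lower in 8 of 8 tumors (exact permutation, adjusted p = 0.104), and without oligodendrocyte-list cells by -154 CPM, lower in 6 of 7 tumors. Of 40 such tests none passed an adjusted p of 0.05, and 13 had an unadjusted exact permutation p under 0.05. For Gdf10 only 4 tumors and for SmoM2-EYFP only 3 had at least 5 cells in both parts, where the smallest exact permutation p is 0.125 and 0.25.

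In WT cerebella, where no test was planned, the Gdf10 split gave large differences. Gdf10-positive cells held Tnc at 827 ± 164 against 289 ± 129 CPM (SD, n = 5), Slc1a3 at 4604 ± 377 against 2248 ± 537 CPM and Fabp7 at 16618 ± 3699 against 9702 ± 3070.4 CPM. Gfap went the other way, at 221 ± 72.6 against 896 ± 415 CPM, as did Gja1, at 139 ± 95.0 against 528 ± 187 CPM. In the 4 tumors with enough cells, Gdf10-positive cells were higher in Slc1a3 in 4 and in Tnc in 3, whereas they were higher in Fabp7 in 1, and in Gfap and Gja1 in 2 each. Agt and Aqp4 were higher in Gdf10-positive cells in 4 of these 4 tumors, but lower on average in WT. There Agt was at 248 ± 70.4 against 418 ± 92.0 CPM and Aqp4 at 2272 ± 311 against 2973 ± 545 CPM.

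Further astrocyte genes were read in 6 lists of 60 genes in all, in marked cells. Between Vismodegib and Vehicle, none of 8 tested transport genes and none of 7 ion, water and junction genes were called, while 2 of 10 lipid and metal genes, 2 of 9 matrix genes and none of 3 filament genes were higher, and 1 of 8 radial glia genes was lower, where 2.27% of all genes were called. The lipid carrier Clu rose by 1.45 ± 0.31, the metal-binding Mt3 by 1.07 ± 0.22, the matrix proteoglycan Ncan by 1.66 ± 0.38 and the calcium-binding S100b by 1.16 ± 0.21, and the septin Sept4 fell by 1.16. Without oligodendrocyte-list cells, none of these lists held a gene called higher (edgeR adjusted p under 0.05), with Clu at 1.09 ± 0.32 (0.121), Mt3 at 0.83 ± 0.23 (0.10), Ncan at 1.51 ± 0.39 (0.0827) and S100b at 0.79 ± 0.24 (0.150), and Sept4 was still called lower (-1.48 ± 0.32, 0.0430). Over all marked cells, the list medians were 0.32 for transport, 0.68 for ions, 0.53 for lipids, 0.50 for radial glia, -0.21 for filaments and 0.17 for matrix, beside -0.02 over all genes. In the same order they were 0.11, 0.34, 0.11, 0.33, -0.18 and 0.04 without oligodendrocyte-list cells.

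Between Vehicle and WT marked cells, where 23.3% of all genes were called, higher in Vehicle were 3 of 8 transport, 5 of 7 ion, 6 of 10 lipid, 3 of 9 radial glia, 1 of 3 filament and 5 of 9 matrix genes. Lower were 1 lipid, 2 radial glia, 1 filament and 2 matrix genes. The potassium channels Kcnj10 (3.11 ± 0.34) and Kcnj16 (1.94 ± 0.41) and the glutamine transporter Slc38a3 (1.48 ± 0.30) were higher, as were the matrix genes Cspg5 (3.45 ± 0.31) and Bcan (2.13 ± 0.29) and the copper-binding Cp (3.45 ± 0.40). Cp belongs to the list of filament and reactive genes. Which group carried a gene of these lists over the filter on low counts was not examined. Their counts and folds, here and between Vismodegib and Vehicle, are therefore descriptions. The Bergmann glia gene Gdf10 (-3.25 ± 0.35), the matrix gene Vcan (-1.53 ± 0.23), the acyl-CoA binding Dbi (-1.44 ± 0.24), and the intermediate filaments Nes (-1.31 ± 0.30) and Vim (-0.81 ± 0.26) were lower. Cspg5, Bcan and Vcan are also known from oligodendrocyte precursors, and 30.4% of marked Vehicle cells met the list of the whole oligodendrocyte lineage. Without oligodendrocyte-list cells, Cspg5 differed by 2.42 ± 0.26 (edgeR adjusted p = 4.44e-07), Bcan by 2.02 ± 0.27 (4.39e-06) and Vcan by -1.84 ± 0.26 (6.8e-06), whereas Vim was no longer called (-0.27 ± 0.23, 0.461). In that fit 2 radial glia genes were called higher, Sept4 (2.56 ± 0.29) and Id4 (1.36 ± 0.25), and 2 lower. Of the lipid list 7 genes were called higher there, led by Acsbg1 (2.18 ± 0.28) and Mt1 (2.15 ± 0.22), and 1 lower.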

How the data were processed

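The deposited tables held raw UMI counts per gene and barcode, which the authors made with bcl2fastq 2.18, Drop-seq Tools, STAR and a mm10 genome extended with Cre and SmoM2/EYFP. The submitters' processing notes give STAR 5.4b and the study's methods another version. For the annotation, no version is given in the sources used here. Tumor samples were sequenced with human HEK 293 cells as a spike-in, whose barcodes the authors removed.

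Barcodes with over 500 UMIs and over 500 genes were kept unless their UMIs, genes or mitochondrial share lay over 5 SD above the animal's median, which left 37918 of 51841. No doublet caller was run. Counts were summed per animal and cell set, so that mice are the replicates, and edgeR shares the spread between them over genes. For marked against other Vehicle cells this sharing was so strong that a gene's own spread between mice weighed little in its p-value. Sums were tested with edgeR 4.0.16 in R 4.3.3 (quasi-likelihood test, TMM scaling, filter on low counts, Benjamini-Hochberg over all genes tested, threshold 0.05). The 4 marker genes were left out of counts of calls. Marked against other cells and the interactions had the animal as a block. Shares were compared with 2-sided exact permutation tests written in Python 3.11.15 with numpy 2.4.6. CPM is the UMI count per 1000000 UMIs of the set. The scripts were tested on simulated data.

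The 10 genes and all lists were chosen with earlier results of these data known. Genes outside the 10 were named when they led the ranking of marked over other cells, or as the most changed called genes of each further list. Alternatives were DESeq2 1.42.0, other scaling, filters and marker thresholds, leaving out each animal, the replicate number as a block, and a term for 2 sets of tumors that earlier work on these data told apart. Leaving out oligodendrocyte-lineage cells, and leaving out animals with under 25 marked cells, were chosen after seeing the data.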

Additional observations from a re-analysis of the deposited data

Results flagged for a closer look

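Glul in marked cells of Vehicle tumors had 1 sample far from the others: Vehicle 1, at 585 CPM, lay below the remaining 4. This was the only such case in 33 groups of animals examined, and chance gives about 1 in 20.

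The effect of treatment differed between marked and other cells, by the interaction term, for Gfap (2.01 on the log2 scale), Slc1a2 (1.72), Gja1 (0.97) and Slc1a3 (0.94). This term was called for 3.22% of 12005 genes. Without oligodendrocyte-list cells it was not called for Gja1 and Slc1a3. The difference between Vehicle and WT differed between marked and other cells for Gja1 (2.29), Tnc (2.28), Aqp4 (1.89), Glul (1.34), Fabp7 (1.17), Slc1a2 (-0.78) and Gfap (-1.51). Here 6.78% of 11258 genes were called, and Slc1a2 and Gfap were not called without oligodendrocyte-list cells. The part of the differing makeup of the other cells in both terms was not tested. Tnc reached the filter on low counts only through marked WT cells, so that its value is a description.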

How the results depend on the processing

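For marked against other cells, all fitted values of the 10 genes kept their direction and call, which says nothing for genes that reached the filter in marked cells alone. Over the 9 comparisons, leaving out 1 animal gave 735 values, of which 657 kept both, 40 lost and 5 gained a call and 33 changed sign, and other settings gave 731 values, of which 656, 26, 15 and 34 did so. The cause of these changes was not tested. Without cells of 2 lineages, calls among all genes numbered 2383 for marked against other Vehicle cells (3739 otherwise), 21 for Vismodegib against Vehicle marked cells (48 otherwise), 309 for Vehicle against WT marked cells (736 otherwise), and 88 and 344 for the treatment and tumor interactions (386 and 763 otherwise). Calls for Vismodegib against Vehicle marked cells numbered 15 without oligodendrocyte-lineage cells, 84 without animals with few marked cells, 200 without a gene filter, 18 with markers read in thinned cells and 33 to 61 with 1 animal left out. Calls for Vehicle against WT marked cells numbered 1500 without a filter and 458 with thinned markers. The treatment interaction had 214 without oligodendrocyte-lineage cells and 202 to 405 with 1 animal left out.

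The treatment difference in the share of marked cells was 1.25 points at 4 SD (exact permutation p = 0.0556), 1.37 points when permuted within the sets of tumors (p = 0.05), 0.758 points without cells of 2 lineages (p = 0.0159) and 1.11 to 1.63 points with 1 animal left out. With at least 3 markers it was 1.16 points, and with thinned markers 1.17 points (exact permutation p = 0.00794 for both). Replicate numbers were not taken as pairs. Correlations of same-numbered Vehicle and Vismodegib tumors ran from -0.150 to 0.429, with 3 of 5 over 0.1 and 2 of 5 tumors closest to their own number, a hint from the data and not the design. Those of WT and Vehicle ran from -0.216 to 0.018, with 0 of 5 in both respects. With the replicate number as a block, the shares differed by 1.37 and -5.47 points (exact permutation p = 0.0625 for both, the smallest that 5 pairs allow). Calls under the block numbered 56 in marked and 1718 in other cells for treatment, and 626 and 5564 for Vehicle against WT.

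Changes of sign concerned differences that did not pass, with Gfap of Vehicle against WT other cells as the exception. For Vismodegib against Vehicle marked cells, Slc1a3 became -0.15 without cells of 2 lineages, -0.28 without oligodendrocyte-lineage cells, -0.027 without animals with few marked cells, -0.20 with at least 3 markers, -0.15 with thinned markers and -0.050 to 0.21 with 1 animal left out, Glul 0.062 without a filter, 0.070 at 4 SD and -0.18 to 0.10 with 1 animal left out, and Fabp7 0.012 with the set term. For Vehicle against WT marked cells, in the same order of settings, Aqp4 became 0.42, 0.58, 0.33, 0.42 and 0.49 (-0.26 to 0.078 with 1 animal left out), Fabp7 0.14, 0.21, 0.096, 0.14 and 0.13, and Gja1 0.14, 0.45, 0.067 and 0.36 (not with thinned markers), Aldh1l1 0.13 without oligodendrocyte-lineage cells, 0.057 with at least 3 markers and 0.10 with thinned markers, and Gfap 0.011 with thinned markers. With 1 animal left out, Gfap of Vismodegib against Vehicle other cells ran from -0.038 to 0.38 and Slc1a3 of Vehicle against WT other cells from -0.086 to 0.21. In other cells of Vehicle against WT, Gfap became -0.53 and Slc1a3 -0.24 with thinned markers, Slc1a3 -0.29 and Agt -0.066 with at least 3 markers. In the interactions, Fabp7 became -0.11 and -0.35 without cells of 2 lineages and without oligodendrocyte-lineage cells, Aldh1l1 0.054 without animals with few marked cells, and Agt -0.11 without cells of 2 lineages. With 1 animal left out, the treatment interaction ran from -0.23 to 0.099 for Glul and -0.32 to 0.11 for Aldh1l1, and the tumor interaction from -0.28 to 0.47 for Slc1a3 and -0.31 to 0.26 for Agt.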
